A study of Mus musculus with 12 samples.

Results

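FoxP3 binding at the genes of 2 chromatin remodellers, Chd2 and Chd7, was described in regulatory T (Treg) cells that carry either FoxP3 with the substitution A384T or wild-type FoxP3 (WT). Members were the peaks whose summit lies in a window around each gene, chromosome 7 from 80550000 to 80720000 for Chd2 (170 kb) and chromosome 4 from 8580000 to 8830000 for Chd7 (250 kb), all positions in mm9. Joining peaks of different libraries that overlap by at least 1 bp gave 70 regions, 56 in the Chd2 window and 14 in the Chd7 window, of 24765 regions in the whole series. The 2 genes were chosen by values of these same peak lists, namely presence and rank of pileup (the fragment depth at the summit) within a list in either genotype. Contrasts between the genotypes at these regions are therefore given as descriptions, with no test.

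The A384T group consisted of Treg cells from FoxP3A384T:hCD2 mice, and the WT group of Treg cells from FoxP3WT:hCD2 mice. All animals were C57BL/6J, and in both lines human CD2 reports FoxP3, so the CD4+ hCD2+ cells of lymph nodes and spleen could be sorted magnetically without further treatment. Each genotype has 3 anti-FoxP3 ChIP libraries with a peak list, and the comparison asks where the substituted protein is found relative to the wild-type protein. The labels speak of triplicates but not of separate animals, so a spread between libraries may be technical. A384T replicates 1, 2 and 3 gave 18147, 6657 and 2050 peaks from 18255500, 22402648 and 24493840 unique tags. WT replicates 1, 2 and 3 gave 20723, 1746 and 3905 peaks from 17520951, 25386770 and 21752899 unique tags. Both replicate 1 libraries stand apart, with the longest lists, tags of 51 bp where the others have 49 bp, and the highest shares of redundant tags, at 30% in A384T and 39% in WT. Peak lists hold no expression values, so the sorted cell type could not be checked against marker genes. In such bulk ChIP, binding in fewer cells and weaker binding in each cell cannot be told apart.

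Chd2 and Chd7 belong to the CHD family, enzymes that use ATP through a helicase-like motor to slide or exchange nucleosomes and that read histone tails through paired chromodomains. Chd2 is known for work at transcribed genes, and loss of one copy in humans causes an epilepsy of childhood. Chd7 is known for binding enhancers and active promoters, and mutations in humans cause CHARGE syndrome. FoxP3 is the forkhead transcription factor that defines Treg cells, and the substituted residue lies in its forkhead DNA-binding domain. In the gene order of the GRCm38 assembly, Chd2 lies between Rgma and Fam174b and Chd7 between Rab2a and Clvs1. Exons, introns and promoters in mm9 were not analysed here.

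Both windows held FoxP3 peaks in every library, and presence of peaks was part of the choice. The Chd2 window held 4 regions with a peak in all 6 libraries and the Chd7 window held 3. They are lettered here by position. Chd2-a spans chromosome 7 from 80668142 to 80668523, Chd2-b 80669341 to 80669621, Chd2-c 80682526 to 80683296 and Chd2-d 80701496 to 80702003. Chd7-a spans chromosome 4 from 8726662 to 8727079, Chd7-b 8730273 to 8730604 and Chd7-c 8738156 to 8738589. Across the series 3.88% of the regions had a peak in all 6 libraries, against 7.14% of the Chd2 regions and 21.4% of the Chd7 regions. Neither window held a region with a peak in all 3 libraries of one genotype that missed any library of the other.

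Summits of each of these regions fell within 87 bp of one another over the 6 libraries. The spread from the lowest to the highest summit over the 6 libraries was 29 bp in Chd2-a, 42 bp in Chd2-b, 87 bp in Chd2-c and 57 bp in Chd2-d. In Chd7-a it was 31 bp, in Chd7-b 45 bp and in Chd7-c 66 bp. Chd2-a and Chd2-b form a close pair with a median of 1141 bp between their summits, and Chd2-c lies 14.6 kb and Chd2-d 33.3 kb from Chd2-a. The 3 Chd7 regions lie closer together, with Chd7-b 3.58 kb and Chd7-c 11.5 kb from Chd7-a.

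At Chd2 the region with the highest pileup was the same in every A384T library but differed among the WT libraries. Chd2-c was the highest region of the window in all 3 A384T libraries and in WT replicate 1, while Chd2-b was the highest in WT replicates 2 and 3. Its pileup was 268, 202 and 121 in A384T replicates 1, 2 and 3, against 148, 38.7 and 65 in WT replicates 1, 2 and 3. This made it peak 26 of 18147, 23 of 6657 and 62 of 2050 by pileup in the A384T lists, against 673 of 20723, 945 of 1746 and 520 of 3905 in the WT lists. By peak number its place in every A384T list was thus nearer the top than in any WT list, though the lists differ in length.

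**Figure D1:**
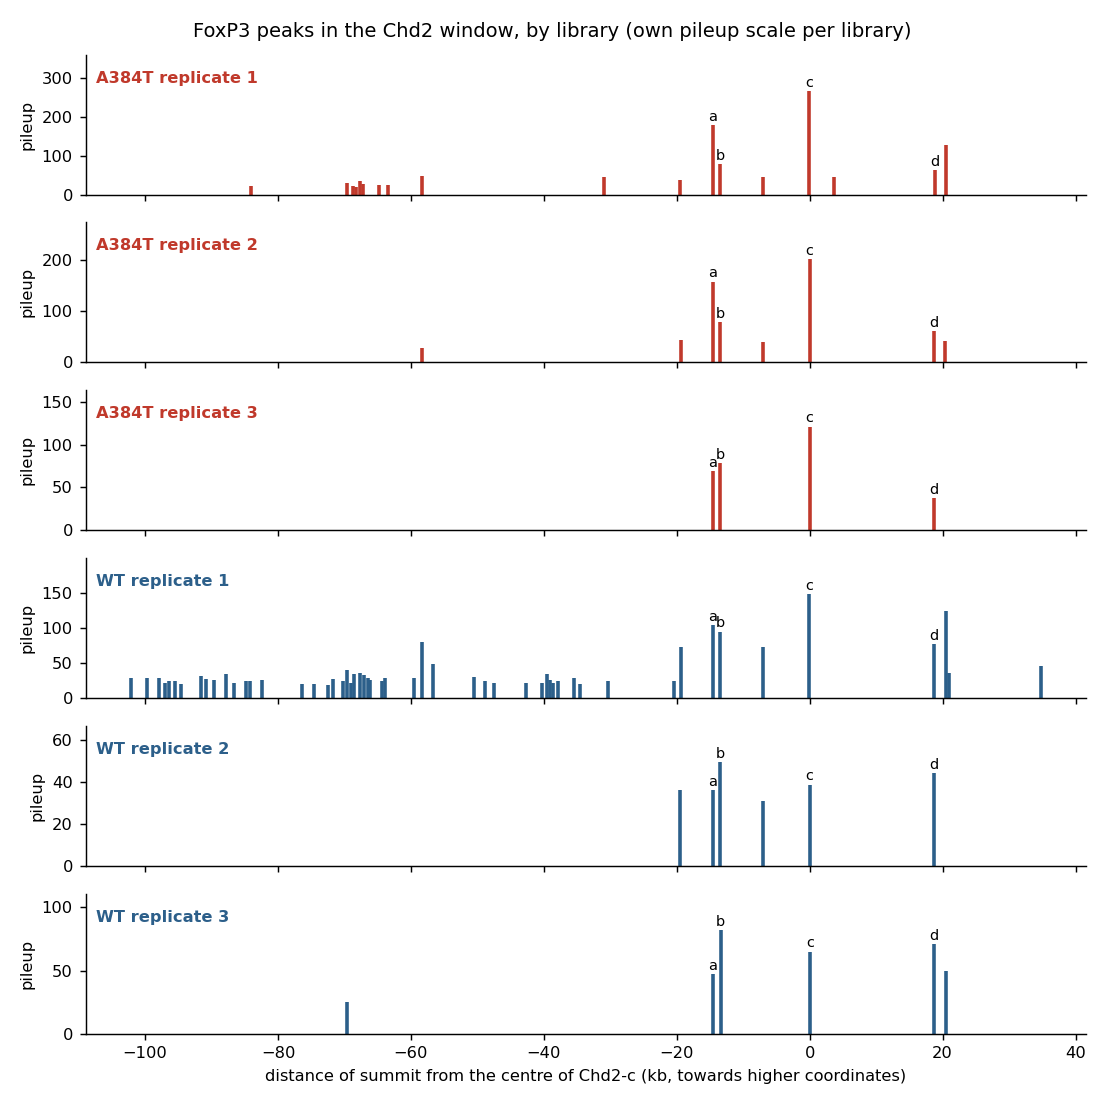
Pileup (fragment depth at the summit, own scale for each library) of every FoxP3 peak in the Chd2 window, by distance in kb from the centre of Chd2-c, with A384T libraries in the upper panels and WT libraries in the lower ones. Letters mark the 4 regions found in all 6 libraries. Chd2-c is the highest line in the 3 A384T libraries and in WT replicate 1, and WT replicate 1 has a row of low peaks to the left.

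Pileup has no scale shared between libraries, so each peak was placed by its percentile within its own list, where 100 is the strongest. The regions present in all 6 libraries had a median list percentile of 92.2, 90.1 and 63.8 in A384T replicates 1, 2 and 3. In WT replicates 1, 2 and 3 this median was 96.4, 68.4 and 84.0. Differences in list percentile between libraries therefore include this shift, which is lowest in the 2 shortest lists. Chd2-c averaged 98.8 ± 1.60 in A384T and 75.9 ± 27.7 in WT (SD, n = 3 each), a difference of 23.0 points. Of the regions present in all 6 libraries, 1.04% lay higher in every A384T list than in every WT list by this measure, and Chd2-c was one of them. Its nearest libraries were A384T replicate 3 at 97.0 and WT replicate 1 at 96.7, a gap smaller than the SD within either genotype. The WT spread came mainly from replicate 2, where Chd2-c stood at the 44.5 percentile, and without that library the difference was 7.27 points. In the 49 bp libraries the difference was 32.9 points, and in the 51 bp libraries, with 1 library per genotype, it was 3.14 points.

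The authors' fold enrichment over control was also higher in every A384T library than in every WT library at Chd2-c. Over the regions present in all 6 libraries this was counted only by rank of fold, where 7.59% lay higher in every A384T library. At Chd2-c fold was 34.2, 33.1 and 23.7 in A384T replicates 1, 2 and 3, against 21.6, 5.67 and 8.84 in WT replicates 1, 2 and 3. The gap between A384T replicate 3 and WT replicate 1 was smaller than the SD within either genotype (5.75 in A384T and 8.45 in WT). The local control background implied by pileup and fold was 6.38 ± 1.38 in A384T and 7.12 ± 0.307 in WT (SD, n = 3 each). This background was higher than at the other 3 Chd2 regions found in every library, where the means ran from 3.64 to 4.56 in A384T and from 3.46 to 3.70 in WT. Chd2-c was 755, 491 and 406 bp wide in A384T replicates 1, 2 and 3, against 766, 233 and 279 bp in WT replicates 1, 2 and 3. It was the widest of the 4 in every library except WT replicate 3, where it tied with Chd2-d.

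Chd2-a had a higher mean percentile in A384T, as Chd2-c did, but its full-list percentiles overlapped between the genotypes. Chd2-a had a pileup of 179, 157 and 69 in A384T replicates 1, 2 and 3, against 104, 36.1 and 47 in WT replicates 1, 2 and 3. By list place it was peak 286 of 18147, 87 of 6657 and 255 of 2050 in the A384T lists, against 1952 of 20723, 1106 of 1746 and 1200 of 3905 in the WT lists. Its percentile within the full lists was 98.4, 98.7 and 87.4 in A384T replicates 1, 2 and 3, against 90.4, 35.5 and 68.4 in WT replicates 1, 2 and 3. By this measure the genotypes overlapped, since A384T replicate 3 lay below WT replicate 1. By fold enrichment its libraries overlapped, at 37.4, 61.3 and 19.0 in A384T and 42.5, 12.4 and 8.54 in WT. Chd2-b had a pileup of 78, 77.6 and 78 in A384T and of 95, 49.3 and 82 in WT. Chd2-d had 63, 60.6 and 38 in A384T and 77, 43.98 and 71 in WT, which also overlapped.

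A narrower ranking used the 962 regions present in all 6 libraries, so that every library orders the same regions. Within this set Chd2-a stood at the 84.7, 94.4 and 81.4 percentile in A384T replicates 1, 2 and 3, against 15.6, 16.7 and 21.2 in WT replicates 1, 2 and 3. The gap between the nearest libraries of the 2 genotypes was far wider than the range within either one. The means were 86.8 ± 6.75 in A384T and 17.8 ± 2.95 in WT (SD, n = 3 each). The difference of 69.0 points was the highest of the 962 in the direction of A384T. Chd2-c, at 98.3 ± 1.20 in A384T and 43.9 ± 17.9 in WT (SD, n = 3 each), was number 11 in the same order, with a difference of 54.4 points. Of the 962 regions, 12.4% ranked higher in every A384T library than in every WT library (19.2% without WT replicate 1), and the median absolute difference over the set was 10.7 points. Ranked by fold in place of pileup the difference at Chd2-a was 42.5 points, and without WT replicate 2 that at Chd2-c was 33.8 points. Since these lists chose the genes, the places of Chd2-a and Chd2-c describe the choice and do not test it.

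Both regions kept their direction within each tag length. For Chd2-a the difference in percentile was 69.0 points in the 49 bp libraries (n = 2 each) and 69.1 points in the 51 bp libraries (1 each). For Chd2-c it was 58.5 points in the 49 bp libraries and 46.4 points in the 51 bp libraries. Chd2-b averaged 46.9 ± 36.2 in A384T and 46.2 ± 34.5 in WT (SD, n = 3 each), so libraries of one genotype differed more than the genotype means. Its lowest place was in replicate 1 and its highest in replicate 3 of both genotypes. Chd2-d averaged 15.9 ± 10.03 in A384T and 35.4 ± 30.4 in WT (SD, n = 3 each), a difference of -19.6 points within the WT spread. It was -35.4 points without WT replicate 1 and -5.25 points without WT replicate 3. By tag length it was -30.6 points in the 49 bp libraries and 2.55 points in the 51 bp libraries.

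**Figure D2:**
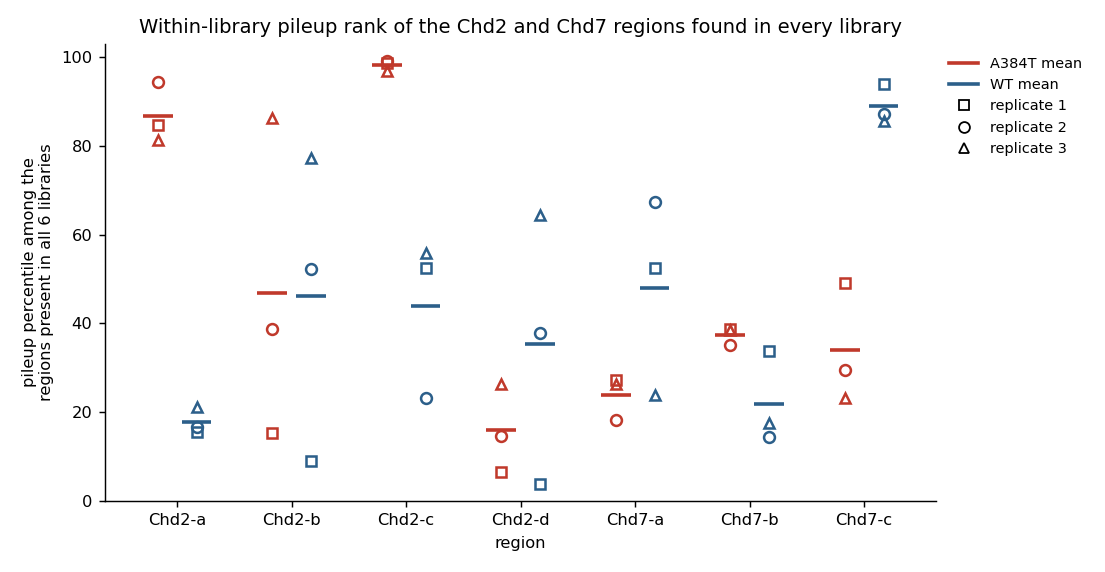
Pileup percentile within the 962 regions present in all 6 libraries for the 7 lettered regions, with A384T to the left of WT, a symbol for each replicate and a bar for the mean. Chd2-a lies between 81.4 and 94.4 in A384T and between 15.6 and 21.2 in WT, while Chd7-c lies between 23.1 and 49.2 in A384T and between 85.6 and 94.02 in WT.

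In the Chd7 window the widest contrast, at Chd7-c, ran the other way from those at Chd2-a and Chd2-c. Chd7-c had a pileup of 115, 71 and 37 in A384T replicates 1, 2 and 3, against 242, 79.2 and 98 in WT replicates 1, 2 and 3. It was peak 1443 of 18147, 1047 of 6657 and 1301 of 2050 in the A384T lists, against 83 of 20723, 124 of 1746 and 178 of 3905 in the WT lists. In A384T replicates 2 and 3 Chd7-b was the highest region of the window, with a pileup of 74.8 and 42, whereas Chd7-c was the highest in A384T replicate 1 and in all 3 WT libraries.

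Within the full lists Chd7-c averaged the 70.3 ± 30.9 percentile in A384T and the 95.9 ± 3.42 percentile in WT (SD, n = 3 each), a difference of -25.7 points. Of the regions present in all 6 libraries, 2.81% lay higher in every WT list than in every A384T list, Chd7-c among them. Its nearest libraries were A384T replicate 1 at 92.0 and WT replicate 2 at 92.8, a gap smaller than the SD within either genotype. The A384T spread came mainly from replicate 3, where the region stood at the 34.9 percentile, and without that library the difference was -7.95 points. It was -34.7 points in the 49 bp libraries and -7.62 points in the 51 bp libraries.

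Within the 962 regions Chd7-c stood at the 49.2, 29.6 and 23.1 percentile in A384T replicates 1, 2 and 3, against 94.02, 87.3 and 85.6 in WT replicates 1, 2 and 3. The highest A384T library was below the lowest WT library. The means were 33.9 ± 13.6 in A384T and 88.9 ± 4.48 in WT (SD, n = 3 each), and the difference of -55.0 points was number 5 of the 962 in the direction of WT. A place higher in every WT library than in every A384T library was held by 14% of the 962. Without A384T replicate 3 the difference was -34.3 points. By tag length it was -60.1 points in the 49 bp libraries and -44.9 points in the 51 bp libraries. Fold enrichment overlapped here, at 28.6, 12.0 and 7.65 in A384T and 35.3, 24.8 and 26.2 in WT.

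**Figure D3:**
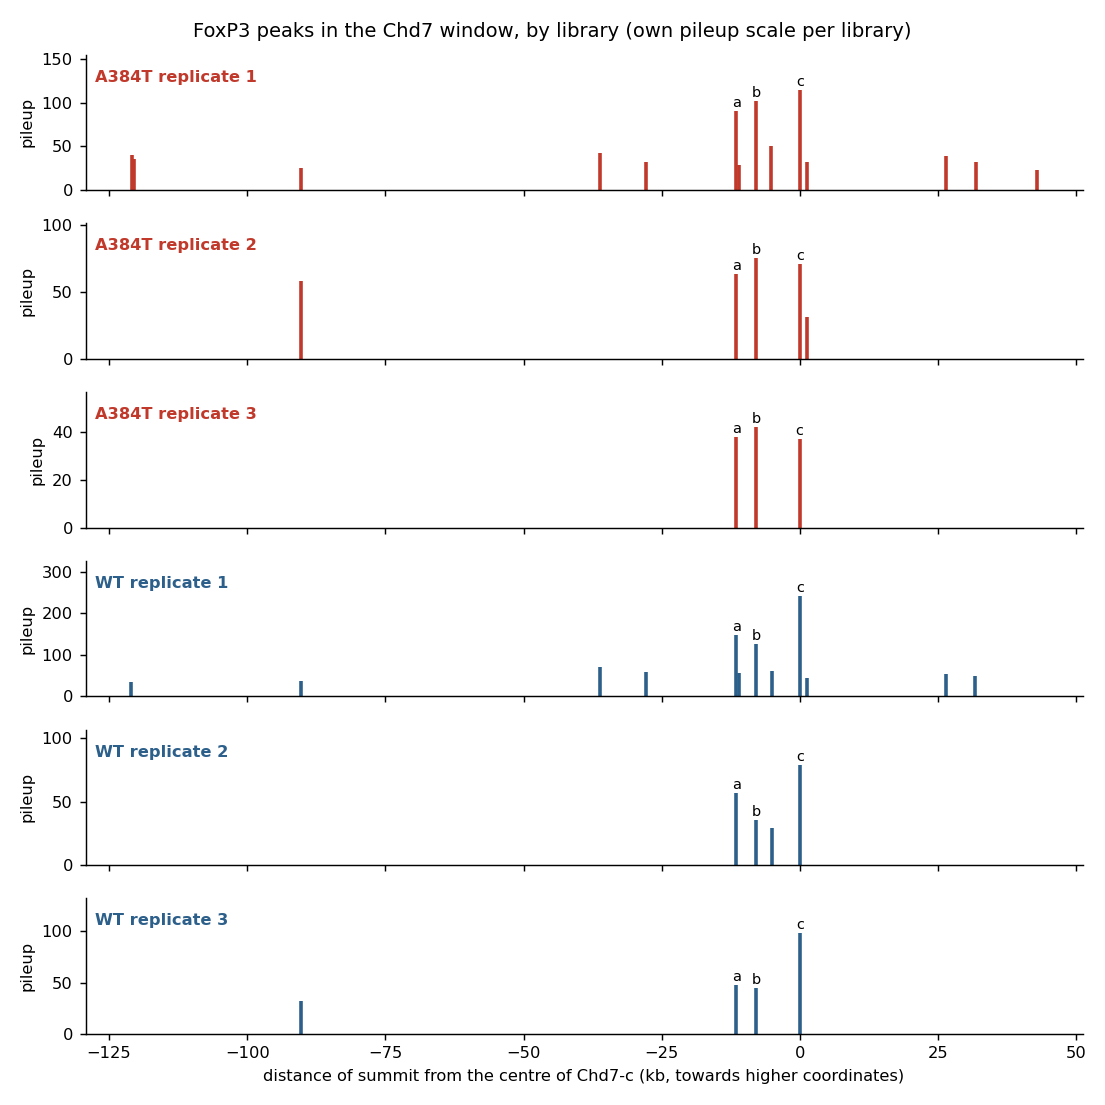
Pileup (fragment depth at the summit, own scale for each library) of every FoxP3 peak in the Chd7 window, by distance in kb from the centre of Chd7-c, with A384T libraries in the upper panels and WT libraries in the lower ones. In the A384T libraries the 3 lettered regions are of similar height, from 91 to 115 in replicate 1, while in the 3 WT libraries Chd7-c is the highest line, at 242, 79.2 and 98.

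The 2 other Chd7 regions found in every library gave smaller differences. Chd7-a had a pileup of 91, 63.4 and 38 in A384T and of 148, 57.2 and 48 in WT, and a percentile among the 962 of 23.9 ± 4.96 in A384T and 47.9 ± 22.1 in WT (SD, n = 3 each). Its libraries overlapped between genotypes, and the difference of -24.0 points was -36.4 points without WT replicate 3. Chd7-b had a pileup of 102, 74.8 and 42 in A384T and of 126, 35.2 and 45 in WT, and percentiles of 37.5 ± 1.95 in A384T and 21.9 ± 10.4 in WT (SD, n = 3 each). All 3 A384T percentiles of Chd7-b lay above the WT ones, but the nearest pair, 35.2 in A384T replicate 2 and 33.7 in WT replicate 1, differed by less than the spread within WT. Its difference of 15.6 points was 7.18 points without WT replicate 2, 20.9 points in the 49 bp libraries and 5.04 points in the 51 bp libraries. Of the 7 lettered regions, 3 thus ranked higher in every A384T library and 1 higher in every WT library, beside the 12.4% and 14% over the 962.

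**Figure D4:**
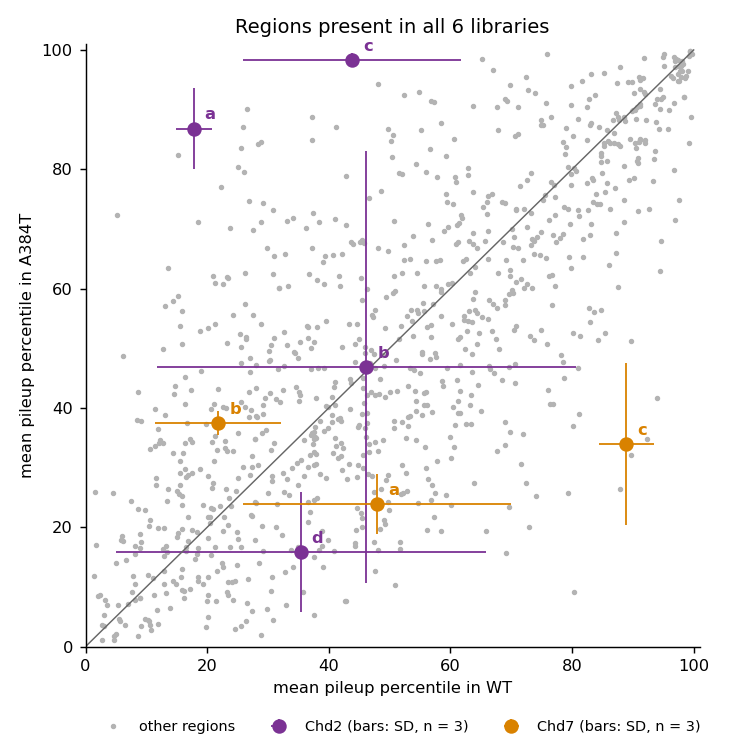
Mean pileup percentile in A384T (vertical axis) against WT (horizontal axis) for the 962 regions present in all 6 libraries, with the 4 Chd2 and 3 Chd7 regions coloured and lettered and bars for the SD (n = 3). Chd2-a and Chd2-c lie far above the diagonal and Chd7-c far below it, while Chd2-b lies on it with long bars.

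The ratio of 2 regions of the same window within a library needs no scale between libraries. All 9 pairs of lettered regions of a window were compared, 6 at Chd2 and 3 at Chd7. Ratios of the genotypes did not overlap in 3 of the 6 Chd2 pairs and in all 3 Chd7 pairs. Over the 460 pairs of regions present in all 6 libraries and within 50 kb of each other, 20% did not overlap. The median absolute difference between genotypes was 1.05 on the log2 scale for the 9 pairs and 0.21 for the 460, of which the 9 are part. Pairs of a window share regions, so the 9 are not independent. Pileup ranks in these lists chose the genes, and the ratios were added after seeing the values. The higher share and median among the 9 therefore describe the choice and do not test it.

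Among the 9 pairs, Chd7-c over Chd7-b had the smallest spread relative to its difference. This ratio was 1.13, 0.949 and 0.881 in A384T replicates 1, 2 and 3, against 1.92, 2.25 and 2.18 in WT replicates 1, 2 and 3. On the log2 scale the means were -0.03 ± 0.18 in A384T and 1.08 ± 0.12 in WT (SD, n = 3 each), a difference of -1.11. In A384T cells the 2 regions were thus about level, and in WT cells Chd7-c stood well above its neighbour.

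At Chd2 the ratio of Chd2-d to Chd2-c was 0.235, 0.3005 and 0.314 in A384T replicates 1, 2 and 3, against 0.52, 1.14 and 1.09 in WT replicates 1, 2 and 3. The log2 difference was -1.62, with means of -1.83 ± 0.23 in A384T and -0.21 ± 0.63 in WT (SD, n = 3 each). The ratio of Chd2-d to Chd2-a differed by -1.40 on the log2 scale, also without overlap. Chd2-d over Chd2-b was 0.808, 0.780 and 0.487 in A384T replicates 1, 2 and 3, against 0.811, 0.893 and 0.866 in WT replicates 1, 2 and 3. It counts as not overlapping only by the narrow gap between the replicate 1 libraries, which is smaller than the spread within either genotype. Chd2-c over Chd2-a differed by 0.22 on the log2 scale and overlapped, with 1.497, 1.28 and 1.75 in A384T and 1.42, 1.07 and 1.38 in WT. For the close pair, Chd2-b over Chd2-a was 0.436, 0.494 and 1.13 in A384T and 0.913, 1.37 and 1.74 in WT, and here WT replicate 1 overlapped with A384T replicate 3.

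**Figure D5:**
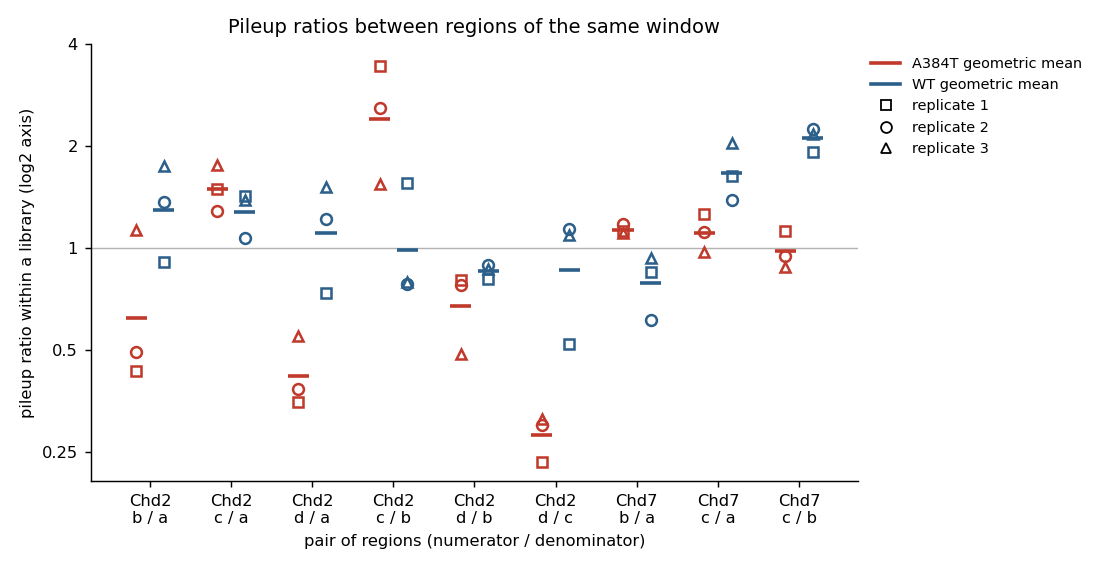
Ratio of pileup between 2 lettered regions of the same window within each library (log2 axis), with A384T to the left of WT, a symbol for each replicate and a bar for the geometric mean. The ratios of Chd7-c to Chd7-b lie between 0.881 and 1.13 in A384T and between 1.92 and 2.25 in WT.

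Peaks outside the lettered regions were mostly weak and came mostly from WT replicate 1. Of the 56 Chd2 regions, 3 (5.36%) had a peak in A384T replicate 1 alone and 39 (69.6%) in WT replicate 1 alone, and 9 had a peak in any of the 4 libraries with 49 bp tags. Over the series 16.2% of regions came from A384T replicate 1 alone and 25.6% from WT replicate 1 alone. At lower coordinates than Chd2-a, A384T replicates 1, 2 and 3 had 11, 2 and 0 peaks, against 46, 1 and 1 in WT replicates 1, 2 and 3. The 46 peaks of WT replicate 1 were spread over 82.7 kb with a median of 1137 bp between neighbours. Pileup there ran from 19 to 80 with a median of 26, and the median percentile within the list was 7.05. The part of the long list of WT replicate 1 in this row was not tested.

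Of the Chd2 regions not found everywhere, 3 had a peak in 4 libraries, 2 of each genotype. The region from 80702854 to 80703909, next to Chd2-d, had a pileup of 129 and 41.7 in A384T replicates 1 and 2, against 124 and 50 in WT replicates 1 and 3. The region from 80663306 to 80663616 had 38 and 42.6 in A384T replicates 1 and 2, against 73 and 36.1 in WT replicates 1 and 2. The region from 80675789 to 80676142 had 46 and 39.8 in A384T replicates 1 and 2, against 73 and 30.8 in WT replicates 1 and 2. Values of the genotypes overlapped in each of the 3.

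The Chd7 window had few peaks of a single library. Of its 14 regions, 12 (85.7%) had a peak in both genotypes, 6 of these in both replicate 1 libraries and no other. The remaining 2 (14.3%) came from A384T replicate 1 alone. Over the series 56.0% of regions had a peak in both genotypes and 42.4% in a single library. The series share from A384T replicate 1 alone was 16.2%, near that of the window. The region from 8648023 to 8648269 had a pileup of 25 and 57.8 in A384T replicates 1 and 2, against 38 and 32 in WT replicates 1 and 3. In A384T replicate 2 this region stood at the 72.6 percentile of the list, and in A384T replicate 1 at 2.90. Chd7 regions with a peak in 3 libraries were 8733069 to 8733413, with 50 in A384T replicate 1 against 61 and 29.0 in WT replicates 1 and 2, and 8739595 to 8739809, with 32 and 31.2 in A384T replicates 1 and 2 against 45 in WT replicate 1.

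Both windows were chosen for the peaks they hold in these lists, so their counts describe the choice. The Chd2 window held 18, 8 and 4 peaks in A384T replicates 1, 2 and 3, against 54, 6 and 6 in WT replicates 1, 2 and 3. The Chd7 window held 14, 5 and 3 in A384T and 12, 4 and 4 in WT. With every list reduced to the 1746 strongest peaks by q-value, the Chd2 window kept 3, 4 and 4 in A384T and 3, 6 and 4 in WT, and the Chd7 window 2, 3 and 2 in A384T and 3, 4 and 3 in WT. Per 1000 peaks of a list the Chd2 window had 1.38 ± 0.504 in A384T and 2.53 ± 0.952 in WT, and the Chd7 window 0.995 ± 0.406 in A384T and 1.30 ± 0.888 in WT (SD, n = 3 each). The differences of -1.14 and -0.303 came from libraries that overlapped between the genotypes. Without WT replicate 2 the Chd2 difference was -0.690 and the Chd7 difference turned to 0.194. The Chd7 difference was also -0.662 without WT replicate 1, and -0.191, -0.181 and -0.537 without A384T replicates 1, 2 and 3.

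Beyond the lower edge of the Chd2 window the nearest summit in any library was 1097 kb away, and the nearest inside was 30.8 kb from the edge with a pileup of 28 in WT replicate 1. At the upper edge the nearest summits were 2.34 kb inside and 8.47 kb outside, with 46 and 32 in WT replicate 1. For Chd7 the nearest summits were 37.3 kb inside and 5.34 kb outside the lower edge, and 48.7 kb inside and 10.05 kb outside the upper edge, with pileups of 23 to 44.

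Other regions with a profile over the 6 libraries like that of Chd2-c were sought by Euclidean distance between the 6 percentiles. The search drew on the 962 but left out a chromosome, for Chd7-c as well. Nearest here therefore means nearest of the regions searched. The nearest was chromosome 11 from 87558441 to 87558812, at a distance of 30.6 and with means of 84.9 in A384T and 37.2 in WT. It was followed by chromosome 2 from 156005119 to 156006345 (91.4 in A384T and 56.8 in WT) and chromosome 8 from 112089447 to 112090202 (86.5 in A384T and 55.2 in WT). For Chd7-c the nearest was chromosome 3 from 60319867 to 60320737, at a distance of 26.5 and with means of 37.0 in A384T and 80.1 in WT. Chromosome 2 from 152601136 to 152601618 (25.7 in A384T and 79.3 in WT) and chromosome 19 from 6363033 to 6363504 (32.1 in A384T and 89.7 in WT) came next.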

How the data were processed

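Peaks were called on each ChIP library with MACS 2.1.0.20140616 against 1 control library at a q-value cutoff of 1e-10, keeping 1 tag per position and scaling the larger set towards the smaller, per the file headers. Bowtie2, MACS2 and the build mm9 are named in the submitters' processing notes. The deposited lists give for each peak a pileup (a signal value), -log10 p and q values and a fold enrichment (a ratio over local control). Where a list has no peak, the cutoff was not passed there, and weaker binding cannot be judged.

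Peaks on standard chromosomes were joined across libraries and ranked within lists by pileup, ties averaged. The implied control background is (pileup + 1) / fold. Members, lists, named regions and alternatives were chosen with earlier results of these data known, and pair ratios were added after seeing the values. Regions were named by rule: those in all 6 libraries, then up to 3 per window with the most libraries, and the 3 most alike of those searched. The planned counts for other remodeller genes were not analysed here. Joining and ranking were tested on simulated lists of like length with well separated sites. Unequal lists and closely spaced peaks were not simulated. Scripts ran in Python 3.11.15 with pandas 2.3.3, numpy 2.4.6 and matplotlib 3.10.9.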

Additional observations from a re-analysis of the deposited data

How the results depend on the processing

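In all, 194 alternatives were run on 18 results. The value stayed inside 1 SD between replicates, its exact interval or a factor of 1.5 for counts in 152, passed these bounds in 36 and changed sign in 6. This SD was 19.6 points for Chd2-c in full lists, so 7.27 points without WT replicate 2 counted as inside, beside 23.0. The causes were not tested. Ranking the lead regions within the shared set was planned, while shared-set percentiles of the other regions, their alternatives, the pair ratios and the 49 bp alternative were added after seeing the data. With -log10 q of at least 20 the Chd2 window had 36 regions and the Chd7 window 1 region in every library. Chd2-c, at 14.5 in WT replicate 2, and Chd7-c, at 19.5 in A384T replicate 3, fell below this cutoff there. At this cutoff 2 of 3 remaining pairs, those among Chd2-a, Chd2-b and Chd2-d, did not overlap, beside 22% of 245 pairs over the series. With ratios of fold 5 of 9 pairs did not overlap, beside 13.3% of 460. In the 49 bp libraries 8 of 9 pairs did not overlap, beside 47.6% of 464. With lists of equal length the Chd2 window had 7 regions, 1 of them in every library, the Chd7 window had 5, the Chd2 difference in peaks per 1000 was -0.382 and the Chd7-c difference -60.9 points. Ranked by fold, Chd2-c differed by 59.4 points in full lists, Chd2-b by -12.4 within the shared set, and 7.59% (A384T above WT) and 8.32% (WT above A384T) of shared regions did not overlap. Ranked by -log10 q Chd2-b differed by -3.48, and in the 49 bp libraries by -2.07. Ranking within the shared set gave 54.4 for Chd2-c and -55.0 for Chd7-c.

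Leaving out each library in turn gave 18 to 56 Chd2 regions, -0.662 to 0.194 for the Chd7 peaks per 1000 and -17.9 to 16.4 for Chd2-b. Without a library fewer ranks must separate, and the shares that did not overlap were 15.3 to 19.2% (A384T above WT) and 16.9 to 20.7% (WT above A384T). The count of 18 is without WT replicate 1. No paired analysis was possible because these results come from no test to which a block could be added, and a difference of means is the same with or without pairing by number. List lengths between 1746 and 20723 peaks limit what absence from a list can show.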
